A study of Saccharomyces cerevisiae with 4 samples.

Results

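The metallothionein and copper homeostasis genes of budding yeast (Saccharomyces cerevisiae) were followed by the 10 names CRS5, CUP1-1, CUP1-2, CUP2, CTR1, CTR2, CTR3, MAC1, FRE7 and PCA1, and every probe set annotated to one of them was taken. This gave 9 of the 9335 probe sets on the arrays. Of these, 8 belong to a single gene each, and 1 is annotated to both CUP1-1 and CUP1-2, so that its value belongs to neither copy alone. The arrays came from the H3 K4,36,79R mutant, in which arginines replace the H3 lysines 4, 36 and 79 (2 arrays), and from wild-type yeast (2 arrays). The series text describes the arrays of a group as replicate cultures. Both strains were grown in selective galactose medium and kept for 9 h in selective glucose medium before harvest. In the mutant strain glucose shuts down a copy of the normal H3 gene that galactose had kept on, and newly made H3 then comes from the mutant gene alone. The labels name no other allele of either strain, nor how H3 is expressed in the wild-type strain.

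Copper is both a cofactor and a poison for yeast, and a pair of copper-responsive transcription factors keep it in range. Cup2, also called Ace1, is switched on by excess copper and induces the metallothioneins, small cysteine-rich proteins that bind the metal. Mac1 is active when copper is short and induces surface reductases and high-affinity copper transporters. The reductases convert cupric ions to the cuprous form, which the Ctr transporters then carry into the cell. The CUP1 copies lie in a tandem array whose length differs among strains, and CRS5 is a separate single gene for the second metallothionein.

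The metallothionein gene CRS5, the P-type ATPase gene PCA1 and the reductase gene FRE7 were higher in the mutant, with log2 changes of 1.03 to 1.59. The other metallothionein, read by the shared CUP1 probe set, and the vacuolar transporter gene CTR2 had overlapping arrays in mutant and wild type. The copper transporter genes CTR1 and CTR3 had slightly lower signals in the mutant, and the regulators MAC1 and CUP2 slightly higher ones. The group was put together by gene name, but it was also chosen on the mutant and wild-type signals themselves, since CRS5 was already known to be among the largest rises. The changes of the 9 probe sets are therefore given as a description, with their standard errors (SE) and without p-values.

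All signals below are MAS5 intensities scaled to a common median over all probe sets. Changes are differences of log2(signal + 5.71), mutant minus wild type, where 5.71 is a pseudocount that makes the changes of dim genes smaller than the ratio of their signals. The level of one probe set was not set against that of another, and ratios of probe sets within an array are given only as differences from the wild-type mean of the same ratio.

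**Figure D1:**
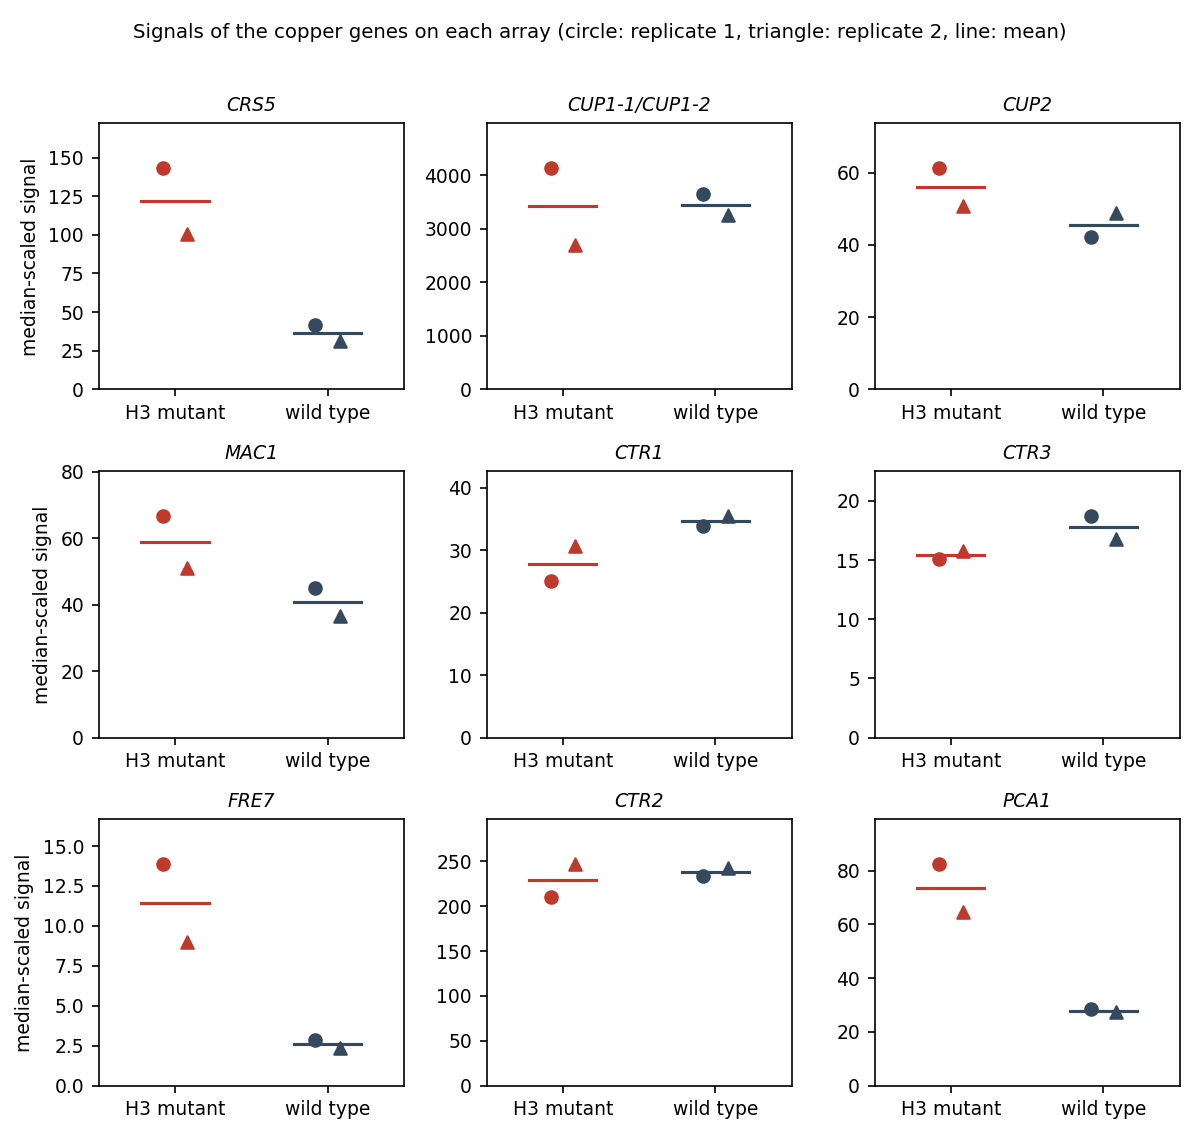
Median-scaled signal (vertical axes, linear and starting at 0) of each of the 9 probe sets on the 2 H3 mutant arrays and the 2 wild-type arrays, with circles for replicate 1, triangles for replicate 2 and lines for group means. The groups lie far apart for CRS5, FRE7 and PCA1, while CUP1-1/CUP1-2 and CTR2 overlap.

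CRS5, the metallothionein gene outside the CUP1 array, gave signals of 143.5 and 100.6 on the mutant arrays, against 41.9 and 31.2 on the wild-type arrays. Both mutant arrays lay above both wild-type arrays, and the lower mutant array was still 1.16 log2 units above the higher wild-type array. The group means were 122 ± 30.3 in the mutant and 36.5 ± 7.53 in wild type (SD, n = 2 each), and the log2 change was 1.59 ± 0.22 (SE), or 3.34-fold by mean signal. In RNA from whole cultures, more transcript per cell and more cells with the transcript cannot be told apart.

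The CUP1 probe set read 4146 and 2707 in the mutant, against 3653 and 3253 in wild type. The mutant arrays lay on either side of the wild-type arrays, with means of 3426 ± 1020 in the mutant and 3453 ± 283 in wild type (SD, n = 2 each). The log2 change was -0.04 ± 0.34 (SE), and without mutant replicate 1 it was -0.35, while without mutant replicate 2 it was 0.27. The suffix of this probe set marks sequence shared between genes.

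The pair of metallothioneins can also be compared inside each array, where no scaling between arrays enters. Relative to the mean of the wild-type arrays, log2(CRS5/CUP1) of the signals as deposited was 1.72 and 1.83 on the mutant arrays, against 0.13 and -0.13 on the wild-type arrays. The mutant arrays were close to each other in this ratio, although both genes were brighter on mutant replicate 1, CRS5 by 0.49 and CUP1 by 0.61 log2 units. The ratio shows that the probe sets changed unequally and does not show that CUP1 stayed constant.

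CUP2, which encodes the copper-activated regulator of CUP1 and CRS5, gave 61.4 and 50.8 in the mutant, against 42.2 and 48.8 in wild type. The groups did not overlap, but the gap between them was 0.05 log2 units, and the log2 change was 0.27 ± 0.17 (SE). SOD1, the gene of the copper and zinc superoxide dismutase and another known target of Cup2, read 1878 and 1231 in the mutant, against 1540 and 1348 in wild type. Its arrays overlapped, and the log2 difference was 0.08 ± 0.29 (SE; limma adjusted p = 0.896 over all genes).

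MAC1, the gene of the regulator active in copper shortage, gave 66.8 and 50.9 in the mutant, against 45.1 and 36.6 in wild type. Both mutant arrays were above both wild-type arrays by at least 0.16 log2 units, with a log2 change of 0.47 ± 0.19 (SE). Within the arrays, log2(CUP2/MAC1) relative to the wild-type mean was -0.28 and -0.17 in the mutant, against -0.26 and 0.26 in wild type, so that the ratio of the regulators overlapped between groups.

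FRE7 encodes a ferric reductase family protein whose transcript is known to rise in copper shortage through Mac1. Its signals were 13.9 and 8.98 in the mutant, against 2.86 and 2.34 in wild type. The mutant arrays were both higher, and both wild-type values lay below the pseudocount, so the log2 change of 1.03 ± 0.18 (SE) understates the 4.4-fold ratio of mean signals. With a pseudocount of 1 in place of 5.71 the change was 1.76, and with 16 it was 0.56. Detection calls were not used here, and whether the wild-type signal exceeds background was not tested.

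CTR1, the gene of the main high-affinity copper transporter at the surface, gave 25.0 and 30.7 in the mutant, against 33.9 and 35.6 in wild type. The mutant arrays were both lower, by a gap of 0.12 log2 units, with a log2 change of -0.27 ± 0.17 (SE). CTR3, which encodes a second high-affinity transporter and is silenced in many laboratory strains by a transposon in its promoter, gave 15.1 and 15.8 in the mutant, against 18.8 and 16.8 in wild type. This is a small difference in the same direction as for CTR1, with a gap of 0.07 log2 units and a log2 change of -0.15 ± 0.15 (SE).

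Whether FRE7 differed from CTR1 and CTR3 in its response was not tested. Of the 3 other Mac1 targets, the surface reductase gene FRE1 read 35.3 and 28.6 in the mutant, against 33.3 and 30.1 in wild type, a difference of 0.01 ± 0.17 on the log2 scale (SE; limma adjusted p = 0.993). REE1, whose product acts on enolase regulation, read 381.6 and 339 in the mutant, against 386 and 337.5 in wild type, which is a difference of -0.01 ± 0.17 on the log2 scale (SE; limma adjusted p = 0.993). IRC7, a beta-lyase gene, was lower in both mutant arrays, at 37.8 and 31.6, against 45.4 and 51.5 in wild type, a difference of -0.43 ± 0.17 on the log2 scale (SE; limma adjusted p = 0.195). Over these 6 Mac1 targets the median log2 change was -0.08, against 0.02 for all 5656 genes tested, and the range was -0.43 to 1.03.

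CTR2 encodes the transporter that moves copper out of the vacuole. Its signals of 210.3 and 247 in the mutant lay around those of 233 and 242 in wild type, with a log2 change of -0.06 ± 0.16 (SE). PCA1 encodes a P-type cation ATPase that exports cadmium in some yeast strains and is inactive for that in common laboratory strains. It gave 82.6 and 64.5 in the mutant, against 28.5 and 27.4 in wild type. The lower mutant array was 1.04 log2 units above the higher wild-type array, and the log2 change was 1.23 ± 0.18 (SE), or 2.63-fold by mean signal. The ratio of PCA1 to CCC2, the gene of the copper-pumping ATPase of the late Golgi, also differed within arrays. Relative to the wild-type mean its log2 was 0.78 and 0.66 in the mutant, against 0.02 and -0.02 in wild type.

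**Figure D2:**
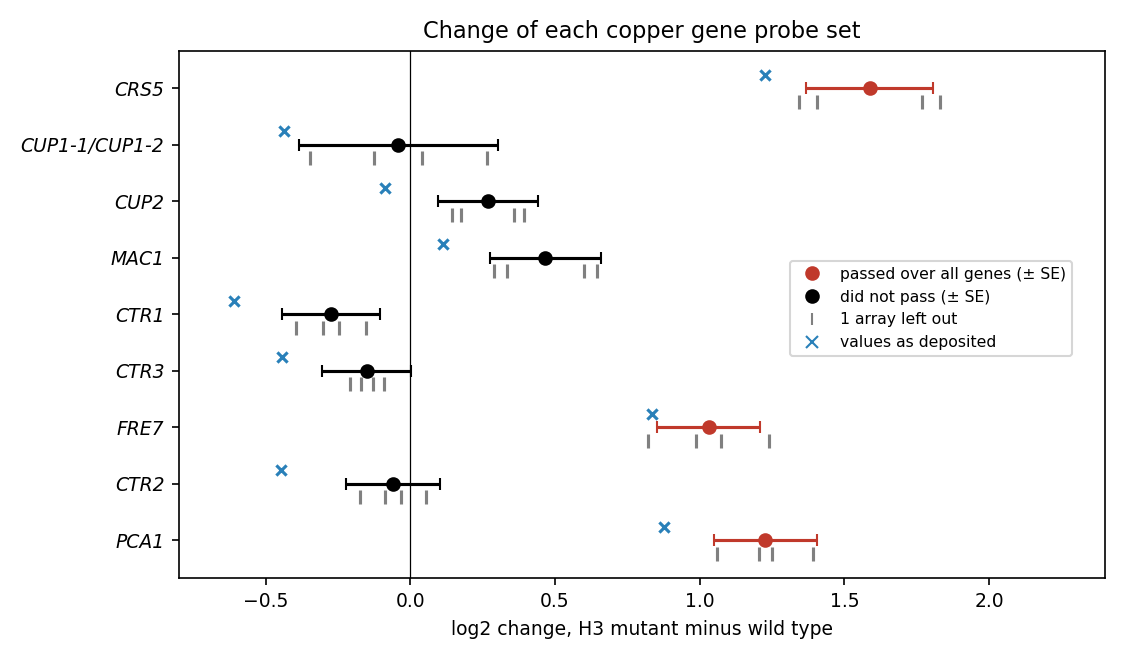
Log2 change, H3 mutant minus wild type (horizontal axis), of each of the 9 probe sets, with SE bars; grey ticks show the change with each of the 4 arrays left out, and blue crosses the change on the values as deposited. CRS5, FRE7 and PCA1 stay at 0.82 or above with any array left out and on the values as deposited, and CUP1-1/CUP1-2 and CTR2 have ticks on both sides of 0.

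Among the 8 singly annotated genes, 3 passed in limma at 0.05 after Benjamini-Hochberg adjustment over all genes, each higher in the mutant, and the same test called 1.87% of the 5656 genes (1.03% higher and 0.849% lower). Since results of this comparison were known when the genes were chosen, nothing is read from that count. When each of the 9335 probe sets was tested on its own, 0.343% were called, and none of the 9 copper probe sets was among them by limma, while 3 of the 9 had an unadjusted p under 0.05, as did 18.1% of all probe sets. Without mutant replicate 1 or without mutant replicate 2, none of the 5656 genes passed, and without a trend in the variance FRE7 no longer did.

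Groups did not overlap for 7 of the 9 probe sets, 5 of them higher and 2 lower in the mutant, where 55.2% of all genes did not overlap (28.1% higher and 27.2% lower). The median log2 change of the 9 was 0.27, against 0.02 over all genes tested. The 3 called genes had the largest changes of the group, and the next largest was the 0.47 of MAC1. With a pseudocount of 16, FRE7 had 0.56 and MAC1 0.39. The group was chosen with these values known, so nothing is read from this gap.

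The mutant arrays differed from each other more than the wild-type arrays did. The median absolute replicate difference over all genes was 0.24 log2 units between mutant arrays and 0.12 between wild-type arrays, and over the 9 copper probe sets it was 0.33 in the mutant and 0.12 in wild type. CRS5, PCA1, FRE7, MAC1, CUP2 and CUP1 were brighter on mutant replicate 1, and CTR1, CTR2 and CTR3 on mutant replicate 2. Of all genes tested 62.8% were brighter on mutant replicate 1, and of the 58 called higher in the mutant 79.3% were.

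**Figure D3:**
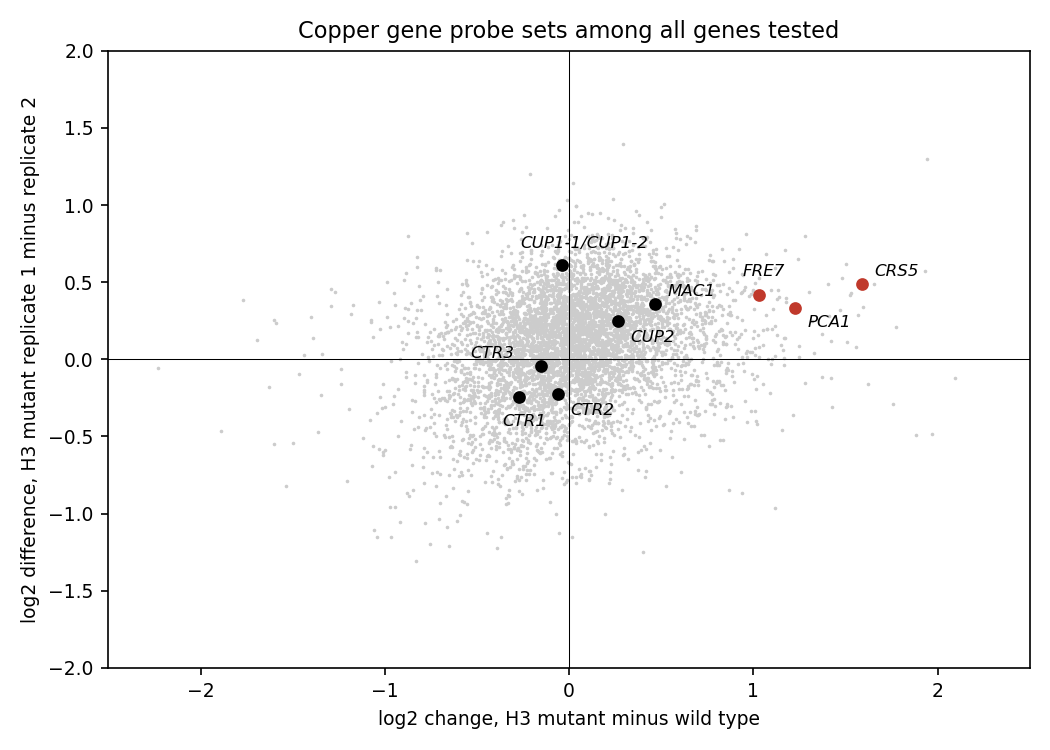
Log2 change, H3 mutant minus wild type (horizontal axis), against the log2 difference of mutant replicate 1 minus replicate 2 (vertical axis), for all genes tested (grey; 1 gene lies outside the axes) and the 9 copper probe sets, red where called. CRS5, PCA1 and FRE7 lie to the upper right, the CTR genes to the lower left, and CUP1-1/CUP1-2 has a replicate difference of 0.61 with a change near 0.

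The scaling of the arrays matters for the small changes. Both mutant arrays as deposited carry an extra factor, 0.849 and 0.7, so that the median log2 change of all genes on the deposited values was -0.32. There the test called 66 genes higher and 1065 lower, a share of 5.84% higher in place of 54.7%. On those values CRS5 had a change of 1.23, PCA1 0.88 and FRE7 0.84. CTR1 had -0.61, and CUP2, at -0.09, turned its sign. Relative to the median of all genes CTR1 and CUP2 kept the direction seen after scaling. In the same mutant arrays all 10 ribosomal RNA control probe sets were higher, with a median log2 change of 1.43, and their part in the copper gene values was not tested. The 3 probe sets for histone H3, each annotated to both H3 genes, had log2 changes of -1.84 ± 0.16, 0.45 ± 0.43 and -0.05 ± 0.45 (SE). Only the lowest value came from arrays that did not overlap, at 144.2 and 121.9 in the mutant, against 483.4 and 496.8 in wild type. It was called in the fit over all probe sets (limma adjusted p = 0.0364), as were 0.343% of them. The probe set at -0.05 was dim, with means of 7.2 in the mutant and 6.2 in wild type. Since the other values were imprecise and the place of the probe sets relative to the mutated codons is unknown, the genotype labels were not checked by them.

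Of 24 other genes that handle copper, none passed the limma test over all genes, while at an unadjusted p under 0.05 there were 4 on the higher side (16.7%) and 2 on the lower (8.33%). Over all genes 12% were higher and 11.2% lower at that level. The median log2 change of the 24 was 0.07, and 17 of them (70.8%) lay above 0, where 52% of all genes did. The 3 largest positive values were those of COX11, CCC2 and ATX1. ATX1, the chaperone that hands copper to Ccc2, read 172 and 142 in the mutant, against 100.1 and 107.5 in wild type (log2 change 0.57 ± 0.16, SE; limma adjusted p = 0.113). CCC2 read 94.7 and 80.2 in the mutant, against 55.4 and 54.4 in wild type (log2 change 0.62 ± 0.16, SE; limma adjusted p = 0.0898). For this chaperone and its partner both mutant arrays lay above both wild-type arrays.

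COX11, which inserts copper into cytochrome oxidase, read 60.6 and 75.4 in the mutant, against 66.5 and 17.0 in wild type. Its groups overlapped, and the value of 0.86 ± 0.48 on the log2 scale (SE; limma adjusted p = 0.327) rests on wild-type replicate 2. Without that array it was 0.02, without mutant replicates 1 and 2 in turn it was 1.00 and 0.71, and without wild-type replicate 1 it was 1.69 and passed, with the lone wild-type array assumed to vary like the mutant arrays. The largest negative values after IRC7 were those of COX19 and CMC1, small proteins of the mitochondrial intermembrane space that serve cytochrome oxidase assembly. COX19 had -0.41 on the log2 scale (SE 0.17, limma adjusted p = 0.212) and CMC1 of -0.34 (SE 0.17, limma adjusted p = 0.281). Both mutant arrays lay below both wild-type arrays for each of them.

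**Figure D4:**
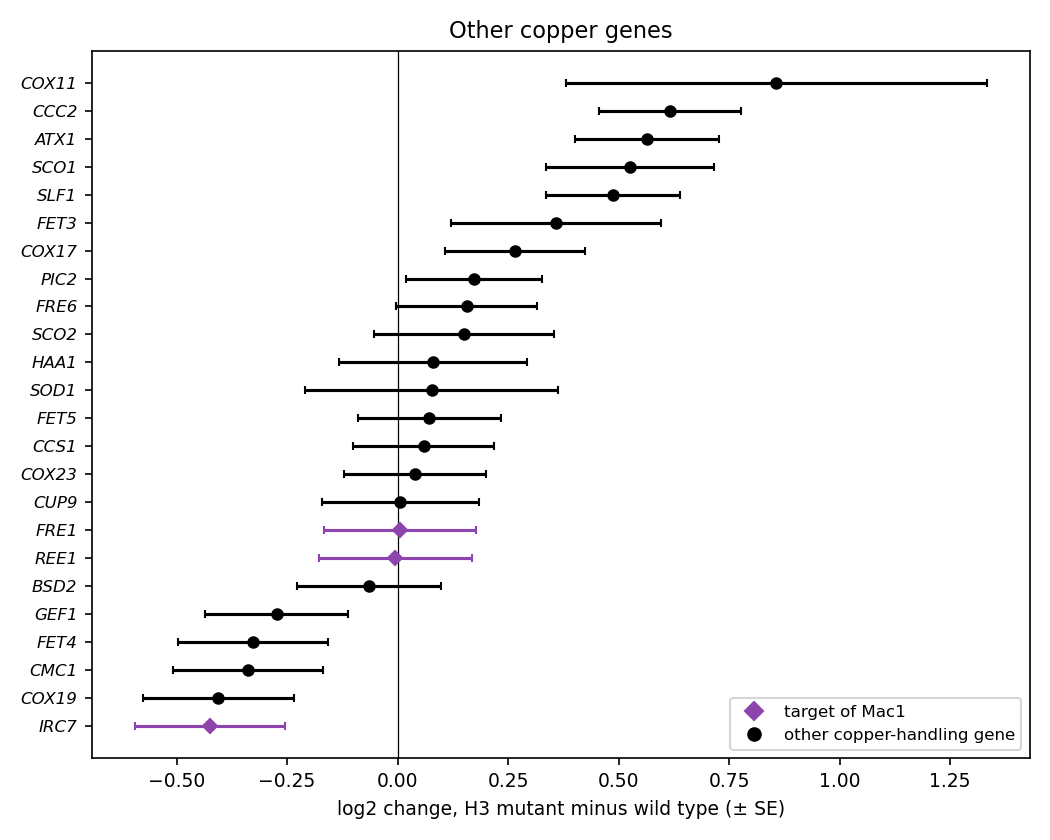
Log2 change, H3 mutant minus wild type (horizontal axis, with SE bars), of the 24 other copper genes, with diamonds for the 3 Mac1 targets FRE1, REE1 and IRC7. Values run from -0.43 for IRC7 to 0.86 for COX11, and FRE1 and REE1 lie at 0.

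Genes for other metals and for oxidant defence, functions tied to metallothioneins, gave no called member either. Of 18 genes listed for zinc and other metal ions none passed (at an unadjusted p under 0.05 in limma, only COT1, where 23.2% of all genes were), and their median was -0.07. The list also held the phosphate transporter gene PHO89. COT1, a vacuolar transporter of cobalt and zinc, read 70.9 and 92.7 in the mutant, against 142 and 147 in wild type (log2 change -0.79 ± 0.17, SE; limma adjusted p = 0.0659). MSC2, a zinc transporter gene, had -0.39, while the manganese transporter gene SMF1 had 0.37 and IZH2, a zinc-responsive membrane protein gene, 0.59, with limma adjusted p from 0.248 to 0.382. The arrays of IZH2 overlapped. Its value was 0.32 without mutant replicate 1, 0.87 without mutant replicate 2, 1.00 without wild-type replicate 1 and 0.19 without wild-type replicate 2.

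Of 20 oxidant defence genes none passed (at an unadjusted p under 0.05 in limma, 5 were on the higher side and 1 on the lower, or 25% and 5%, against 12% and 11.2% of all genes), with a median log2 change of 0.18. SRX1, the sulfiredoxin gene, read 271 and 152 in the mutant, against 102 and 101 in wild type (log2 change 0.96 ± 0.26, SE; limma adjusted p = 0.0994). The peroxidase gene GPX1 had a log2 change of 0.86 (limma adjusted p = 0.0755) and its relative GPX2 one of -0.78 (limma adjusted p = 0.218). SKN7, a regulator of the oxidative stress response, had -0.52 (limma adjusted p = 0.118). The sizes for SRX1 and GPX2 depended on single arrays, while that for GPX1 varied less. SRX1 had 0.56 without mutant replicate 1 and 1.37 without mutant replicate 2, and GPX2 had -0.25 without mutant replicate 1 and -1.31 without mutant replicate 2, and neither passed there. Without wild-type replicate 1, SRX1 had 0.97 and GPX2 -0.94. GPX1 had 1.06 without wild-type replicate 2, and its other values with an array left out ran from 0.66 to 1.01.

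The genes next to the 3 called copper genes in the reference gene table were read as well. PCA1 lies between SUL1 and PHO89. SUL1, a sulfate transporter gene, rose, with 17.7 and 15.0 in the mutant, against 5.80 and 6.42 in wild type (log2 change 0.90 ± 0.15, SE; limma adjusted p = 0.0426). PHO89, a phosphate transporter gene, had 28.8 and 19.5 in the mutant, against 32.6 and 29.9 in wild type, and did not pass (limma adjusted p = 0.37). CRS5 lies between DFG16, with a log2 change of 0.49 (limma adjusted p = 0.199), and HMS1, with 0.47 (limma adjusted p = 0.307). DFG16 was dim, at 7.61 and 4.70 in the mutant, against 4.02 and 1.47 in wild type, and the arrays of HMS1 overlapped. FRE7 lies between YOL153C, with 0.52 (limma adjusted p = 0.189), and the reductase gene GRE2, with -0.02 (limma adjusted p = 0.951). YOL153C was also dim, at 9.99 and 5.37 in the mutant, against 2.59 and 4.42 in wild type. The wild-type values of DFG16 and YOL153C lay below the pseudocount of 5.71.

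The genes most like CRS5 over the 4 arrays were found by the Euclidean distance between log2 values, each centred on its gene's mean. The 5 nearest of the 5656 genes were YOR062C (distance 0.197), PGU1 (0.244), an endopolygalacturonase gene, the inositol pyrophosphatase gene SIW14 (0.257), YOL036W (0.29) and YMR085W (0.371). YOR062C read 187 and 120.2 in the mutant, against 52.3 and 46.6 in wild type. None of the 5 is one of the copper genes. For PCA1 the nearest was the cell wall protein gene PIR3 (0.101), then MNC1 (0.137), ATG41 (0.138), ATR2 (0.156) and YMR090W (0.181). For FRE7 they were SHH3 (0.05), EDS1 (0.08), NCW2 (0.091), SNR50 (0.101) and PIR3 (0.114). PIR3, with 707 and 532.5 in the mutant, against 279.5 and 271 in wild type, is the gene that stands in both lists. With 4 arrays in 2 groups, a small distance says little more than that the changes were of similar size.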

How the data were processed

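Biotin-labelled targets from about 20 ug of total RNA per sample, taken at an OD600 of 0.5 to 0.7, were hybridised to single-colour Affymetrix arrays, per the labels' protocols. The deposited intensity values are linear MAS5 signals, per the submitters' processing notes, of unstated version. Within each array every signal (100%, tolerance 0.01) is a whole number of steps. The steps are 0.0849 and 0.07 on the mutant arrays and 0.1 on both wild-type arrays, which gives the factors of 0.849 and 0.7. Trimmed means (2 to 98 percent) of the deposited values were 105.6 and 87.1 in the mutant and 124.3 and 124.2 in wild type. With the factors divided out, both mutant arrays had a trimmed mean of 124.4. No source used here says where the factors come from.

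Arrays were brought to a common median over 9335 probe sets, and a pseudocount of 5.71 (the 20th percentile of scaled values) was added before log2. The platform annotation gives 1 symbol for 6504 probe sets, all matched to the gene table of assembly R64; 328 carry several symbols, 2443 carry none, and 60 are controls. For each of 5656 genes 1 probe set was used, without a shared-sequence suffix where possible and then the brightest. Mutant minus wild type was fitted with limma 3.58.1 in R 4.3.3 (eBayes with trend, two-sided), adjusted by Benjamini-Hochberg over all genes. The CUP1 probe set, with several symbols, comes from the same fit over all probe sets. With 2 arrays a group the smallest exact permutation p is 0.33, and the number of arrays limits the precision. Log2 values correlated across genes with r = 0.983 between mutant and 0.986 between wild-type arrays. The fit was tested on simulated data. The copper genes and the lists were chosen with earlier results of these data known. Named genes are all members, SOD1, the other Mac1 targets, genes of each list past the threshold and its largest changes each way (3 for copper, 2 for the others), neighbours of called members and the 5 nearest profiles of each.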

Additional observations from a re-analysis of the deposited data

How the results depend on the processing

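Alternatives were the values as deposited, quantile normalization, pseudocounts of 1 and 16, no dim genes, all probe sets, no trend, robust variances, the replicate number as a block, each array left out in turn and, chosen after seeing the data, equal trimmed means. Leaving out dim genes, all probe sets, no trend, robust variances and the block act on the test alone. The changes are identical there by construction. Of the 126 changes of single copper probe sets under the 14 settings, 122 kept their sign, these fixed ones included. The exceptions were CUP2 on deposited values (-0.09), CTR2 without mutant replicate 1 (0.06) and CUP1 without mutant replicate 2 (0.27) and without wild-type replicate 1 (0.04). CRS5 ranged from 1.23 to 1.83, PCA1 from 0.88 to 1.39 and FRE7 from 0.56 to 1.76. The number of copper genes called, 3 in the fit described, was 0 with all probe sets and 0 to 3 with an array left out. On deposited values it was 4, with CTR1 added as lower (-0.61). Of the other copper, the metal and the oxidant defence genes, 0 were called in the fit described. On deposited values 5 of 24, 1 of 18 and 3 of 20 were, all lower, where 1065 of all 5656 genes were called lower. They were COX19, CMC1, FET4, GEF1 and IRC7, then COT1, then SKN7, TSA2 and GPX2. The deposited values keep the extra factors of the mutant arrays, so nothing is read from these calls or from that of CTR1. With robust variances 0, 1 and 1 were called (COT1 and GPX1). With an array left out these counts ran from 0 to 1, 0 to 1 and 0 to 2. Over all genes the total of 106 became 1131 on deposited values, 277 with robust variances, 32 with all probe sets, 69 without trend and 0 to 281 with an array left out.

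The replicate numbers did not pair the arrays (correlation of deviations -0.0156). With the replicate block, on 1 residual degree of freedom, 708 genes were called, with 3 copper genes, 2 other copper, 2 metal and 4 oxidant defence genes. With 2 arrays a group, and mutant arrays that differ more than wild-type arrays, smaller changes such as those of MAC1, CTR1 and CUP2 cannot be resolved.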
